A study of Mus musculus with 24 samples.

Results

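The 7 genes Cdkn1a, Cdkn1b, Cdkn1c, Cdkn2a, Cdkn2b, Cdkn2c and Cdkn2d encode the cyclin-dependent kinase (CDK) inhibitors of the mouse. They were taken by symbol from a table of 20633 transcripts, in which they fill 9 entries because Cdkn1a and Cdkn2a are each listed with a longer and a shorter span. For each symbol the entry with the largest sum over all libraries was used, and all 7 genes were among the 16940 transcripts tested. The study asked which effects of Polycomb repressive complex 1 (PRC1) on gene expression in mouse embryonic stem cells (ESCs) need its catalytic activity, the ubiquitylation of histone H2A. It compared 2 engineered lines of strain E14, each a single clone, before and after 72 h of treatment with 800 nM 4-hydroxytamoxifen (OHT). Cells were mixed with Drosophila SG4 cells for calibration, and total RNA depleted of rRNA was sequenced (cRNA-seq) in 3 libraries for each of 4 conditions.

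The PRC1CKO line (clone B9) carries Ring1a-/-, Ring1bfl/fl and Rosa26::ERT2-Cre, so both its untreated and its OHT-treated cells lack RING1A, and OHT deletes part of Ring1b. The PRC1CPM line (clone 41) carries Ring1a with the I50A/D53K changes, a floxed Ring1b that OHT switches from wild type to I53A/D56K, and the same Rosa26::ERT2-Cre, so its untreated cells already hold mutant RING1A. In both lines OHT acts on a Cre fused to an oestrogen receptor that is expressed from the Rosa26 locus. A line with Cre alone was not analysed here, so effects of OHT or of active Cre cannot be told apart from those of Ring1b. Nor can the difference between the genotypes be told apart from that between the clones.

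CDK inhibitors are small proteins that restrain the kinases driving the cell cycle. Members of the Cip/Kip family (p21 from Cdkn1a, p27 from Cdkn1b, p57 from Cdkn1c) bind many cyclin-CDK complexes, whereas the INK4 proteins (p16 from Cdkn2a, p15 from Cdkn2b, p18 from Cdkn2c, p19 INK4d from Cdkn2d) bind CDK4 and CDK6 and keep them from D-type cyclins. Cdkn2a also encodes ARF from a separate first exon, which restrains MDM2, the ubiquitin ligase of p53, and repression of the Cdkn2a and Cdkn2b locus by Polycomb is a textbook example of the system at work.

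Levels are given as the deposited normalised read count, the number of reads over a gene from start to end, introns included, divided by a factor for each library that rests on the spike-in. Each library held between 14668159 and 27016156 reads on transcripts. Changes were tested with limma on log2(normalised read count + 1) in 1 fit of all 12 libraries, and p-values were adjusted by the Benjamini-Hochberg method over all 16940 transcripts. A gene was called changed at an adjusted p below 0.05 with a fold change above 1.5. The replicates are called biological, but whether they were separate cultures is not given in the sources used here, so p-values measure the spread between these libraries, which may be technical.

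Ring1, which encodes RING1A, had normalised read counts of 313, 204 and 166 in untreated PRC1CKO, 281, 251 and 229 after OHT, 179, 182 and 125 in untreated PRC1CPM and 161, 111 and 148 after OHT. Rnf2, which encodes RING1B, had 1756, 1436 and 1385 in untreated PRC1CKO, 1489, 1565 and 1585 after OHT, 1850, 1659 and 1578 in untreated PRC1CPM and 1724, 1295 and 1513 after OHT. Neither gene was called changed by OHT, with log2 fold changes between -0.20 and 0.20. Counting over a whole gene does not check a deletion or inversion of part of it, so these levels do not test the labels. Ring1 reads were present in PRC1CKO, where the study deleted part of the gene. After OHT each PRC1CKO library lay above each PRC1CPM library, as for 4.35% of all transcripts. That log2 difference, -0.86 for PRC1CPM against PRC1CKO, was not called (adjusted p = 0.156, limma).

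Replicate 1 had the highest total of normalised reads in each condition. The totals of replicates 1, 2 and 3 were 24958331, 17618069 and 17755844 in untreated PRC1CKO, 22092158, 19476946 and 20939764 after OHT, 24373383, 19075822 and 19883420 in untreated PRC1CPM and 26077686, 17909909 and 21836456 after OHT. In replicate 1 of untreated PRC1CKO 1 read also counted for 1.49 normalised reads, against 0.770 and 0.846 in the other libraries of that condition. Every CDK inhibitor gene had its highest untreated PRC1CKO value in this library, and the changes with OHT in PRC1CKO are given with and without it. Leaving out replicate 1 of OHT-treated PRC1CPM lowered the share of all transcripts called higher in PRC1CPM from 13.1% to 8.53%, and 2 inhibitor genes were still called. The median log2 fold change of all transcripts tested was 0.12 with OHT in PRC1CKO and 0.10 in PRC1CPM. When the scale of each library was set without its genomic DNA reads, which calibrate the spike-in, these medians became -0.04 and 0.39, and small changes are to be read against these shifts.

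The bases before 4 start sites are shown because they mark where the transcripts of 3 of the genes called in PRC1CKO begin: both starts of Cdkn2a, the start of its neighbour Cdkn2b, and that of Cdkn1b, which moved the other way. Each is the 250 bases upstream of a RefSeq start site (assembly GRCm38.p6), written 5′ to 3′ on the gene's own strand. Capitals mark CG, which reads the same on both strands. At least 1 CG is found in 92.1% of 32851 mouse promoter windows of this length, and the median window holds 6.
Cdkn2a, ARF start, chr4:89294620-89294869, minus strand: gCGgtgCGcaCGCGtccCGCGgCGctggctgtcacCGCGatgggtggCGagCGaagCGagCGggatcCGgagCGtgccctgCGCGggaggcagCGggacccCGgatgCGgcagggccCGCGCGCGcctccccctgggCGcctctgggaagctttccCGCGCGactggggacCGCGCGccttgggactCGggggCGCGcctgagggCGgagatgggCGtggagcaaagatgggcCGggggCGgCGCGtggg
Cdkn2a, p16 start, chr4:89282193-89282442, minus strand: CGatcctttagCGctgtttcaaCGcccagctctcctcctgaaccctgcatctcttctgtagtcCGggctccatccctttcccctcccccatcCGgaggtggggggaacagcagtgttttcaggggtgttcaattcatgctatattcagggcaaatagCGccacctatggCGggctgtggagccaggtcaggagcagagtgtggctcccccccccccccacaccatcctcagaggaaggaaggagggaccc
Cdkn2b, chr4:89311033-89311282, minus strand: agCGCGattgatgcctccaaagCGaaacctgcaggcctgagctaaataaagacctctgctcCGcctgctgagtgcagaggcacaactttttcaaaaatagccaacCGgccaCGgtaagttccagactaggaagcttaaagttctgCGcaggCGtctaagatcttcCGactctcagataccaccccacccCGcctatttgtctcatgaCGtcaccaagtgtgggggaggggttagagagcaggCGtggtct
Cdkn1b, chr6:134920151-134920400, plus strand: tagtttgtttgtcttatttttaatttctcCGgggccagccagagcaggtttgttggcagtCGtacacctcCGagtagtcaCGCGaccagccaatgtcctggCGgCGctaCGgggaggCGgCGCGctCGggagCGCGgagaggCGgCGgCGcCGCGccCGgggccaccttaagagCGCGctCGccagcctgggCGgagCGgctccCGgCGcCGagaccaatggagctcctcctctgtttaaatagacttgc

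The ARF start was the densest, with 40 CG, a number reached by 1.31% of all promoter windows, and Cdkn1b had 28, reached by 7.61%. The p16 start held 7 and Cdkn2b 12, which 46.3% and 33.5% of windows reached. RefSeq windows matched 6 of the 7 genes, all but Cdkn1c, at 9 start sites. Among those not printed, Cdkn2d held 16, the start sites of Cdkn2c held 29 and 6, and those of Cdkn1a held 2 and 19. High CG density was thus found before a gene that rose and before one that fell with OHT.

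OHT raised Cdkn1c, Cdkn2a, Cdkn2b and Cdkn2c and lowered Cdkn1b in PRC1CKO cells, and left Cdkn1a and Cdkn2d uncalled. The 4 higher and 1 lower of 7 compare with 16.5% and 3.09% of all transcripts tested, called higher and lower. Without replicate 1 of untreated PRC1CKO, 4 were called higher and 0 lower, beside 22.0% and 1.92% of all transcripts, Cdkn1b no longer passing. Without replicate 1 of OHT-treated or replicate 2 of untreated PRC1CKO, 2 were called higher, beside 12.3% and 13.8% of all transcripts, Cdkn2b and Cdkn2c no longer passing. The largest changes were those of Cdkn2a and Cdkn1c, whose mean levels rose 6.39-fold and 4.73-fold. The median log2 fold change of the family was 1.18, beside 0.12 for all transcripts. In bulk RNA, more or fewer cells of a type cannot be told apart from more or less RNA per cell.

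In PRC1CPM cells, where RING1B stays but is made catalytically inactive, OHT raised Cdkn1c and Cdkn2a, by 2.38-fold and 2.51-fold in the mean. These 2 of 7 compare with 13.1% of all transcripts called higher. None of the 7 was called lower, where 1.4% of all transcripts were. At an unadjusted p below 0.05, limma gave 4 higher and 1 lower, and edgeR and DESeq2 each called 2 higher and 0 lower. The median log2 fold change was 0.54, beside 0.10 for all transcripts. Without the genomic DNA correction 4 were called higher, beside 20.2% of all transcripts, and the median was 0.83. Without replicate 1 of untreated PRC1CPM 4 were called higher, beside 14.9%, and with the replicate number as a block 3 were, beside 17.9%. Cdkn1b was called lower with TMM scaling and without replicate 2 of untreated PRC1CPM.

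**Figure D1:**
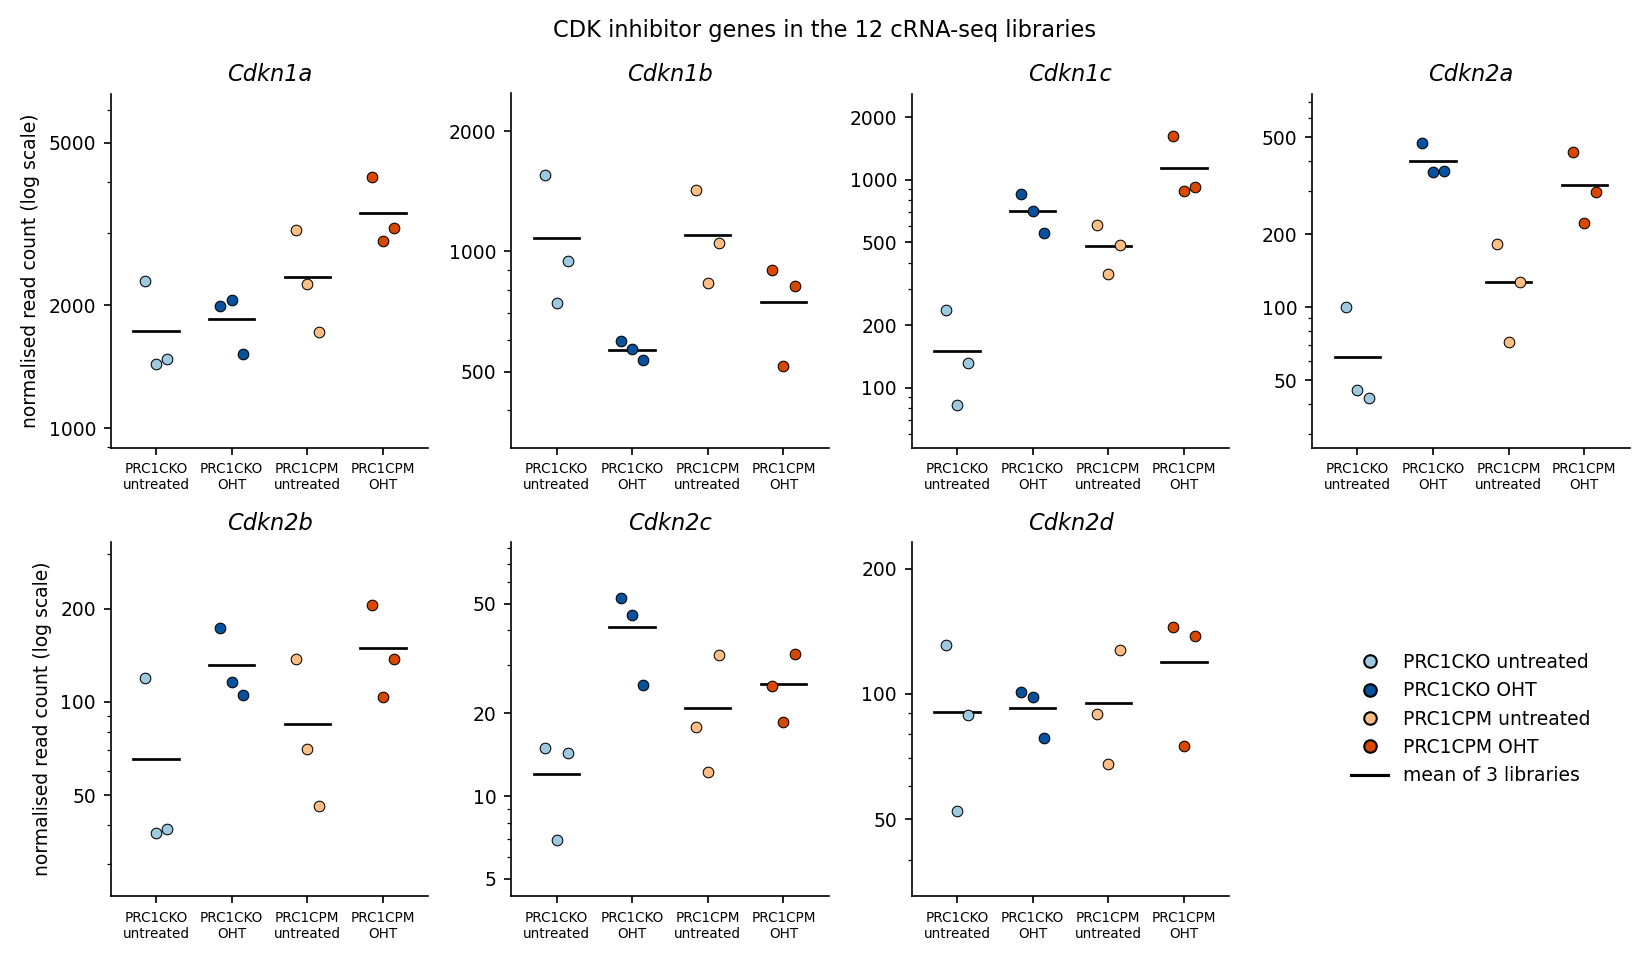
Normalised read count of each CDK inhibitor gene in each library, by condition, on a log axis. Points are libraries and bars are condition means. Cdkn1c and Cdkn2a lie higher in every OHT-treated library than in any untreated library of the same line, and Cdkn1b lies lower in every OHT-treated PRC1CKO library.

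Among the Cip/Kip genes, Cdkn1c (chr7:143458339-143461050, minus strand, mm10), an imprinted gene whose product p57 holds back division during differentiation, had 235, 82.3 and 132 normalised reads in untreated PRC1CKO cells (149.9 ± 78.1, SD, n = 3). OHT-treated PRC1CKO cells had 860, 711 and 557 (709 ± 151, SD, n = 3). Untreated PRC1CPM cells had 607, 354 and 484 (482 ± 127, SD, n = 3) and OHT-treated cells 1629, 884 and 926 (1146 ± 419, SD, n = 3). The libraries of the conditions therefore did not overlap in either line, a pattern that 22.1% of all transcripts showed upward in PRC1CKO and 18.7% in PRC1CPM. The log2 fold change was 2.34 (SE 0.29, adjusted p = 5.29e-09, limma) in PRC1CKO and 1.22 (SE 0.29, adjusted p = 0.00149, limma) in PRC1CPM. Without replicate 1 of untreated PRC1CKO the former was 2.73.

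The untreated lines already differed in Cdkn1c. Each untreated PRC1CPM library lay above each untreated PRC1CKO library, as for 9.23% of all transcripts, with a log2 difference of 1.77 (SE 0.29, adjusted p = 7.44e-05, limma), or 2.16 without replicate 1 of untreated PRC1CKO. This was the 1 gene of 7 called higher, against 2.21% of all transcripts, and none was called lower, against 0.478%. With replicate 1 of untreated PRC1CKO left out, 2 of 7 were called higher (Cdkn1c and Cdkn2a), against 8.81% of all transcripts. At an unadjusted p below 0.05 limma gave 0 lower, as edgeR and DESeq2 did among their calls. After OHT the lines differed by 0.66 in log2 (SE 0.29, adjusted p = 0.353, limma), which was called with the replicate number as a block (adjusted p = 0.000848, limma).

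The log2 effect of OHT on Cdkn1c was thus smaller in PRC1CPM than in PRC1CKO, by a difference of -1.12 (SE 0.41) with a 95% interval from -1.94 to -0.30 before any adjustment. That difference did not pass the test over all transcripts (adjusted p = 1.00, limma), nor did it at -1.51 without replicate 1 of untreated PRC1CKO (adjusted p = 0.0730, limma). It was called with the replicate number as a block (adjusted p = 0.000179, limma), a pairing seen in the correlations of the libraries and not given by the labels. Across the table the test of a difference between the lines called 0.0% of transcripts higher and 0.0236% lower, so it made few calls for any gene, and with the block it called 0.46% and 1.45%. For the inhibitors limma called 0 of 7, with 2 lower at an unadjusted p below 0.05, namely Cdkn1c and Cdkn2a, and edgeR and DESeq2 also called 0.

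Cdkn1b (chr6:134920401-134925525, plus strand), whose product p27 inhibits cyclin E-CDK2, had 1554, 742 and 944 normalised reads in untreated PRC1CKO cells (1080 ± 423, SD, n = 3). After OHT the libraries held 598, 570 and 534 (567 ± 31.9, SD, n = 3). In PRC1CPM they held 1422, 835 and 1051 untreated (1102 ± 297, SD, n = 3) and 900, 517 and 822 after OHT (746 ± 202, SD, n = 3). All OHT-treated PRC1CKO libraries were below all untreated ones, as for 8.52% of all transcripts, whereas the PRC1CPM libraries overlapped. No inhibitor gene was lower without overlap with OHT in PRC1CPM, or in PRC1CPM against PRC1CKO before or after OHT, where 3.7%, 2.55% and 4.35% of all transcripts were. In PRC1CKO the log2 fold change was -0.86 (SE 0.26, adjusted p = 0.0102, limma). Without replicate 1 of untreated PRC1CKO it was -0.56 and was not called (adjusted p = 0.0997, limma), so that library decided the call. It also depended on the variance model, since without a trend of variance on expression the adjusted p was 0.0729.

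In PRC1CPM the log2 fold change of Cdkn1b was -0.57 (SE 0.26, adjusted p = 0.152, limma). Each OHT-treated PRC1CPM library lay below the untreated one of the same replicate number. With that number as a block the fold change of Cdkn1b was the same and too small for a call, whatever the adjusted p. The change also depended on other settings. It was called when libraries were scaled by TMM, at -0.68 (adjusted p = 0.00209, limma), and without replicate 2 of untreated PRC1CPM, at -0.75 (adjusted p = 0.0462, limma). The log2 fold change was -0.27 without the genomic DNA correction (adjusted p = 0.504, limma), -0.32 without replicate 2 of OHT-treated PRC1CPM (adjusted p = 0.498, limma) and -0.37 without replicate 1 of untreated PRC1CPM (adjusted p = 0.482, limma). Cdkn1b was the 1 gene of the family with a log2 fold change below 0 in both lines. Between the lines it differed by 0.07 in log2 when untreated (adjusted p = 0.990, limma) and by 0.36 after OHT (adjusted p = 0.726, limma). Transcripts of chromosome 6, which holds Cdkn1b, had medians 0.19 and 0.20 above those of all transcripts in these comparisons of the lines, and their part in these values was not tested.

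Cdkn1a (chr17:29090986-29100722, plus strand), the p53 target encoding p21, was the most abundant by total reads. Its normalised read counts were 2292, 1435 and 1474 in untreated PRC1CKO (1734 ± 484, SD, n = 3) and 1990, 2056 and 1522 after OHT (1856 ± 291, SD, n = 3). PRC1CPM libraries held 3052, 2258 and 1723 untreated (2344 ± 669, SD, n = 3) and 4122, 2865 and 3082 after OHT (3356 ± 672, SD, n = 3). The untreated and OHT-treated libraries overlapped in both lines, but in PRC1CPM all 3 OHT-treated libraries lay above the untreated one of the same replicate number. With that number as a block the adjusted p in PRC1CPM was 0.000272 (limma), and the fold change stayed too small for a call. The log2 fold change was 0.12 in PRC1CKO (SE 0.23, 95% interval -0.34 to 0.58, adjusted p = 0.813, limma) and 0.54 in PRC1CPM (SE 0.23, 95% interval 0.08 to 0.99, adjusted p = 0.116, limma). Without replicate 1 of untreated PRC1CPM the latter was 0.75 and was called (adjusted p = 0.0180, limma), as it was at 0.83 without the genomic DNA correction (adjusted p = 0.0101, limma). It was 0.34 without replicate 3 of untreated PRC1CPM (adjusted p = 0.650, limma), and without replicate 1 of untreated PRC1CKO the PRC1CKO value was 0.34 (adjusted p = 0.299, limma).

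After OHT, however, Cdkn1a was higher in PRC1CPM than in PRC1CKO, with no overlap between the libraries, as for 11.9% of all transcripts, and a log2 difference of 0.85 (SE 0.23, adjusted p = 0.0357, limma). It was the 1 gene of 7 called higher between the OHT-treated lines, against 1.25% of all transcripts, and none was called lower, against 0.218%. At an unadjusted p below 0.05 limma gave 2 higher, Cdkn1a and Cdkn1c, and 0 lower, and edgeR and DESeq2 called 1 higher and 0 lower. The call was lost with no filter (adjusted p = 0.0837, limma), with no trend of variance (adjusted p = 0.203, limma) and with a pseudocount of 0.1 (adjusted p = 0.0684, limma). It was also lost without replicate 1, 2 or 3 of OHT-treated PRC1CKO (adjusted p = 0.0522, 0.0710 and 0.304, limma) and without replicate 1 or 3 of OHT-treated PRC1CPM (adjusted p = 0.255 and 0.0790, limma). When untreated, the lines differed by 0.43 (SE 0.23, adjusted p = 0.400, limma), with overlapping libraries.

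Among the INK4 genes, Cdkn2a (longer span, chr4:89274473-89294619, minus strand) rose most. It had 99.8, 45.4 and 42.3 normalised reads in untreated PRC1CKO cells (62.5 ± 32.3, SD, n = 3, from 50 to 67 reads a library) and 474, 361 and 363 after OHT (399 ± 64.5, SD, n = 3). In PRC1CPM it had 182, 71.6 and 127 untreated (127 ± 55.0, SD, n = 3) and 435, 223 and 297 after OHT (318 ± 108, SD, n = 3). Each OHT-treated library was above every untreated library of its line, as for 22.1% of all transcripts in PRC1CKO and 18.7% in PRC1CPM. On the log2 scale it rose by 2.76 in PRC1CKO (SE 0.33, adjusted p = 3.11e-09, limma) and by 1.36 in PRC1CPM (SE 0.33, adjusted p = 0.00218, limma). The former was 3.15 without replicate 1 of untreated PRC1CKO (adjusted p = 1.50e-10, limma).

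The untreated lines differed by 1.02 in log2 for Cdkn2a (SE 0.33, adjusted p = 0.0839, limma). This was called without replicate 1 of untreated PRC1CKO, at 1.41 (adjusted p = 0.00431, limma), and without replicate 2 of untreated PRC1CPM, at 1.38 (adjusted p = 0.00502, limma). It was also called with TMM scaling and with the replicate number as a block (adjusted p = 1.76e-05, limma, for the block). After OHT the log2 difference was -0.37 (SE 0.33, adjusted p = 0.851, limma). The log2 effect of OHT in PRC1CPM less that in PRC1CKO was -1.39 (SE 0.47), which did not pass the test over all transcripts (adjusted p = 0.861, limma), nor did it at -1.78 without replicate 1 of untreated PRC1CKO (adjusted p = 0.0715, limma), but it was called with the replicate block (adjusted p = 0.000337, limma).

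The locus makes 2 products, and the table lists it with 2 spans that share a 3′ end. By RefSeq coordinates the longer span starts at the first exon of ARF (chr4:89294334-89294619) and the shorter, which ends at chr4 position 89282192, starts at that of p16. Reads of the shorter span also belong to the longer one, so the stretch of 12427 bases between the starts (chr4:89282193-89294619) was taken as the difference of their reads, a choice made after the values were seen. It held 35.7, 14.6 and 16.9 normalised reads in untreated PRC1CKO and 218, 177 and 202 after OHT, and 65.2, 44.3 and 56.9 in untreated PRC1CPM and 216, 108 and 124 after OHT. Reads from the ARF side of the p16 start were thus present before treatment and higher in each OHT-treated library.

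The log2 fold change of this upstream stretch was 3.19 in PRC1CKO (SE 0.37, adjusted p = 7.66e-10, limma) and 1.36 in PRC1CPM (SE 0.37, adjusted p = 0.00588, limma). Between the untreated lines the stretch was higher in PRC1CPM by 1.36 (SE 0.37, adjusted p = 0.0282, limma), with no overlap of the libraries, as for 9.23% of all transcripts, and no alternative setting was run for it. The shorter span differed there by 0.71 (SE 0.39, adjusted p = 0.437, limma), with overlap. With OHT the change over the shorter span was 2.38 (SE 0.39, adjusted p = 3.20e-06, limma) and 1.41 (SE 0.39, adjusted p = 0.00800, limma). The upstream stretch made up 36.0% of the reads of the longer span in untreated PRC1CKO and 50.2% after OHT, in the mean over libraries, and 47.5% and 46.7% in PRC1CPM. Both parts of the locus were therefore called higher in both lines. In PRC1CPM the libraries of the shorter span overlapped, with 27.3 to 116 normalised reads untreated and 114 to 219 after OHT. Reads in the shorter span cannot be assigned to p16 or ARF, since both transcripts cross it.

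**Figure D2:**
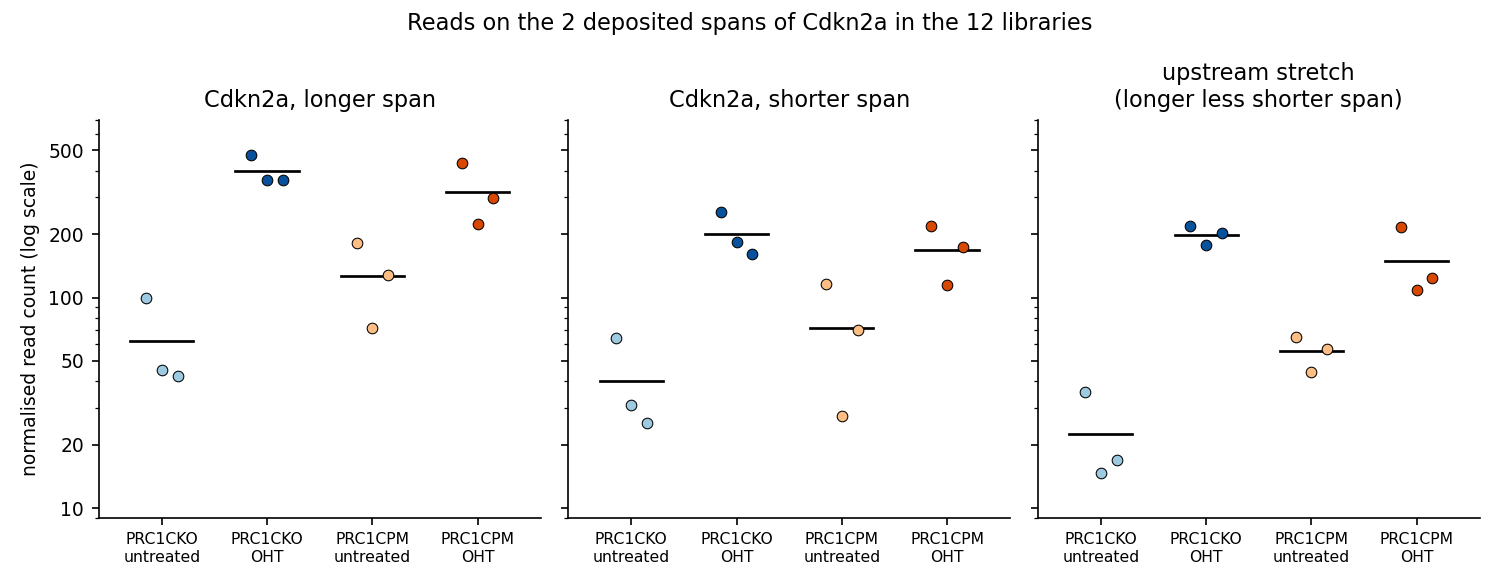
Normalised read count of Cdkn2a in each library on a log axis, for the longer span, the shorter span and the upstream stretch between the ARF and p16 start sites, with points for libraries and bars for means of 3. In all panels every OHT-treated PRC1CKO library lies above every untreated one, and the untreated PRC1CKO mean is lowest for the upstream stretch, at 22.4.

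Cdkn2b (chr4:89306289-89311032, minus strand), which encodes p15 and starts 16.4 kb upstream of the longer span of Cdkn2a, had 119, 37.7 and 38.9 normalised reads in untreated PRC1CKO (65.3 ± 46.7, SD, n = 3) and 174, 116 and 106 after OHT (132 ± 36.7, SD, n = 3). PRC1CPM had 138, 70.7 and 46.1 untreated (85.0 ± 47.6, SD, n = 3) and 206, 104 and 138 after OHT (149 ± 51.9, SD, n = 3). The libraries overlapped in both lines. Fitted log2 fold changes were 1.18 in PRC1CKO (SE 0.39, adjusted p = 0.0232, limma) and 0.89 in PRC1CPM (SE 0.39, 95% interval 0.11 to 1.68, adjusted p = 0.135, limma).

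The PRC1CKO call of Cdkn2b was lost with DESeq2 (adjusted p = 0.0760) and in limma without the filter on low reads (adjusted p = 0.0779), without a trend of variance (adjusted p = 0.113), and without replicate 1 of OHT-treated PRC1CKO (adjusted p = 0.126) or replicate 2 or 3 of untreated PRC1CKO (adjusted p = 0.0991 and 0.185). It was 1.72 without replicate 1 of untreated PRC1CKO (adjusted p = 0.000432, limma). In PRC1CPM it was called without replicate 1 of untreated PRC1CPM, at 1.31 (adjusted p = 0.00806, limma), without the genomic DNA correction, at 1.18 (adjusted p = 0.0131, limma), and with the replicate number as a block (adjusted p = 0.00154, limma). It was 0.53 without replicate 3 of untreated PRC1CPM (adjusted p = 0.671, limma). The gene Gm12610 on the opposite strand covers all 4744 bases of Cdkn2b, and whether counting used strand is not given in the sources used here, so reads of the pair may be mixed.

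Cdkn2c (chr4:109660876-109665372, minus strand), which encodes p18, had the fewest reads, from 9 to 58 in a library. Its normalised read counts were 14.9, 6.93 and 14.4 in untreated PRC1CKO (12.1 ± 4.46, SD, n = 3), 52.4, 45.4 and 25.3 after OHT (41.0 ± 14.1, SD, n = 3), 17.9, 12.3 and 32.5 in untreated PRC1CPM (20.9 ± 10.5, SD, n = 3) and 25.1, 18.6 and 32.9 after OHT (25.5 ± 7.16, SD, n = 3). The PRC1CKO libraries did not overlap, as for 22.1% of all transcripts upward, and those of PRC1CPM did. Log2 fold changes were 1.69 in PRC1CKO (SE 0.49, adjusted p = 0.00857, limma) and 0.35 in PRC1CPM (SE 0.49, 95% interval -0.64 to 1.34, adjusted p = 0.808, limma). The first was not called without replicate 1 of OHT-treated PRC1CKO (adjusted p = 0.0724, limma) or replicate 2 of untreated PRC1CKO (adjusted p = 0.0687, limma), and was 1.87 without replicate 1 of untreated PRC1CKO (adjusted p = 0.00506, limma). The PRC1CPM value of Cdkn2c ran from 0.04 to 0.71 on leaving out a library and was not called. The effects in the lines differed by -1.34 (SE 0.70) and this difference was not called.

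Cdkn2d (chr9:21288464-21291209, minus strand), which encodes p19 INK4d, had 131, 52.3 and 88.8 normalised reads in untreated PRC1CKO (90.7 ± 39.4, SD, n = 3), 101, 98.1 and 78.5 after OHT (92.6 ± 12.3, SD, n = 3), 89.5, 67.9 and 127 in untreated PRC1CPM (94.9 ± 30.2, SD, n = 3) and 145, 75.0 and 138 after OHT (119 ± 38.5, SD, n = 3). The libraries overlapped in both lines. Its log2 fold change was 0.12 in PRC1CKO (SE 0.36, 95% interval -0.60 to 0.83, adjusted p = 0.896, limma), with a sign that turned under other scalings, and 0.31 in PRC1CPM (SE 0.36, adjusted p = 0.736, limma). The former was 0.43 without replicate 1 of untreated PRC1CKO (adjusted p = 0.439, limma). On leaving out a library, the PRC1CPM value of Cdkn2d ran from 0.10 to 0.62 and was not called.

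**Figure D3:**
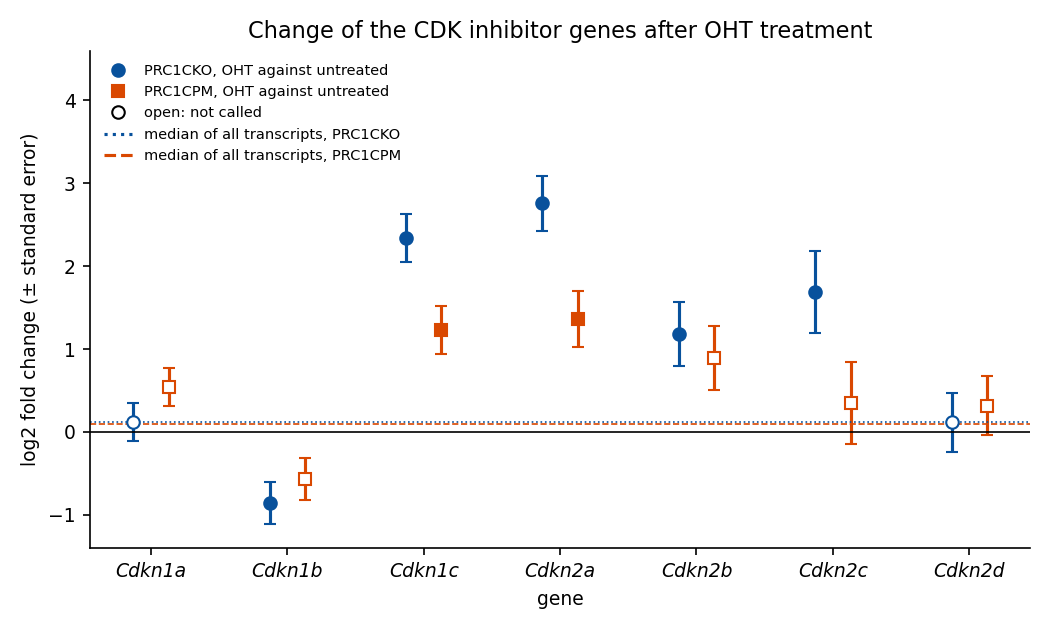
Log2 fold change of each CDK inhibitor gene with OHT in PRC1CKO and in PRC1CPM, with standard errors from limma as bars, filled where called, and the median of all transcripts as broken lines. Cdkn2a and Cdkn1c have the largest values in both lines, at 2.76 and 2.34 in PRC1CKO and 1.36 and 1.22 in PRC1CPM, and Cdkn1b is the one gene below 0 in both.

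Levels between genes were compared per kb of gene span, with the longer span for Cdkn1a and Cdkn2a. In untreated PRC1CKO cells Cdkn1b (211 ± 82.5 normalised reads per kb, SD, n = 3) and Cdkn1a (178 ± 49.7) led, followed by Cdkn1c (55.3 ± 28.8), Cdkn2d (33.1 ± 14.4), Cdkn2b (13.8 ± 9.84), Cdkn2a (3.10 ± 1.61) and Cdkn2c (2.68 ± 0.992). Of these neighbours in the order, Cdkn1b and Cdkn1a overlapped, as did Cdkn1c and Cdkn2d, Cdkn2d and Cdkn2b, and Cdkn2a and Cdkn2c, whereas Cdkn1a lay above Cdkn1c and Cdkn2b above Cdkn2a in every library. In OHT-treated PRC1CKO cells Cdkn1c came first (262 ± 55.7), before Cdkn1a (191 ± 29.9) and Cdkn1b (111 ± 6.23). The INK4 genes kept their order below the Cip/Kip genes.

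Untreated PRC1CPM cells had Cdkn1a (241 ± 68.7 per kb), Cdkn1b (215 ± 57.9) and Cdkn1c (178 ± 46.7) at the top, and OHT-treated PRC1CPM cells had Cdkn1c (423 ± 155), Cdkn1a (345 ± 69.0) and Cdkn1b (146 ± 39.5). In both OHT-treated conditions the libraries of Cdkn1c and Cdkn1a overlapped, whereas Cdkn1a lay above Cdkn1b in every library. The place of Cdkn1a depended on its span, since per kb of its shorter span it had 241 in untreated and 261 in OHT-treated PRC1CKO and 320 and 470 in PRC1CPM, above the mean of Cdkn1c in OHT-treated PRC1CPM (423) and beside that in OHT-treated PRC1CKO (262). Of the level per kb summed over the family with the longer spans, the share of Cdkn1c went from 10.7% to 39.8% in PRC1CKO and from 25.5% to 41.3% in PRC1CPM, in the mean over libraries. That of Cdkn1b went from 42.2% to 17.1% and from 30.7% to 14.5%. Shares of a sum move together, and they were not tested.

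**Figure D4:**
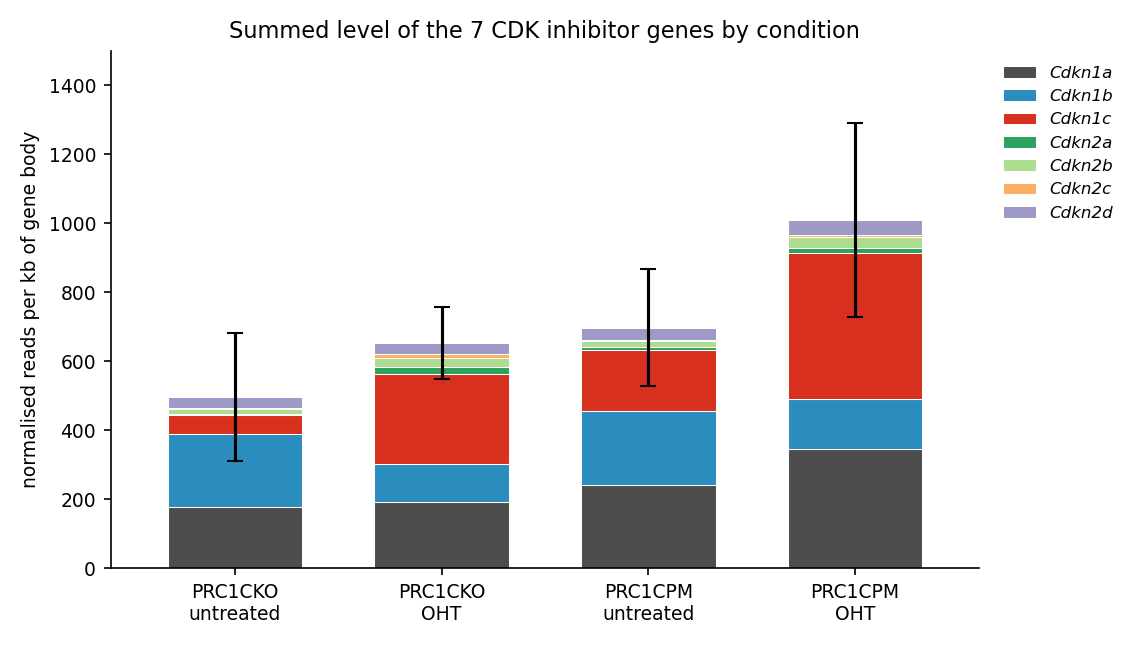
Summed level of the 7 CDK inhibitor genes in the 4 conditions, in normalised reads per kb of gene body, stacked by gene (mean of 3 libraries) with the SD of the sum as error bar. The longer span is used for Cdkn1a and Cdkn2a. Sums are 497, 653, 697 and 1009, and the part of Cdkn1c is larger after OHT than before in both lines.

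Among the genes that CDK inhibitors act on, 7 G1 cyclins and CDKs were tested, and 1 was called higher in each line and none lower. These are near the shares of all transcripts called higher, 16.5% in PRC1CKO and 13.1% in PRC1CPM. The median log2 fold changes of the list were 0.04 and 0.02. At an unadjusted p below 0.05 limma gave 0 lower in either line, and edgeR and DESeq2 called 0 lower. The gene was Ccnd2, the cyclin D2 partner of CDK4 and CDK6. It had 219, 73.1 and 95.6 normalised reads in untreated PRC1CKO and 879, 705 and 590 after OHT, and 293, 128 and 163 in untreated PRC1CPM and 819, 439 and 523 after OHT. Its log2 fold change was 2.62 (SE 0.32, adjusted p = 2.70e-09, limma) in PRC1CKO and 1.64 (SE 0.32, adjusted p = 9.28e-05, limma) in PRC1CPM. Ccne2 and Cdk2, with the next smallest adjusted p-values, had log2 fold changes of 0.48 and -0.45 in PRC1CKO (adjusted p = 0.254 and 0.257, limma). Without the genomic DNA correction 2 were called higher in PRC1CPM, where 20.2% of all transcripts then were.

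None of 10 S, G2 and M cyclins, CDK1 and its regulators was called in either line, and Wee1, the inhibitory kinase of CDK1, was nearest at -0.48 in PRC1CKO (adjusted p = 0.110, limma), before Pkmyt1 at -0.39 and Ccnb2 at -0.23 (adjusted p = 0.357 and 0.608, limma). With TMM scaling 1 was called lower in PRC1CKO, where 6.69% of all transcripts then were. At an unadjusted p below 0.05 limma gave 1 lower in PRC1CKO, and edgeR and DESeq2 called 0. None of 12 proliferation genes induced by E2F was called either, with medians of -0.21 and -0.16 and Mcm3, a subunit of the replicative helicase, at -0.46 in PRC1CKO (adjusted p = 0.119, limma), before Cdt1 at -0.39 and Mki67 at -0.30 (adjusted p = 0.298 and 0.394, limma). There too limma gave 1 lower in PRC1CKO at an unadjusted p below 0.05, and edgeR and DESeq2 called 0. None of 9 genes for the turnover of p27 and p21 was called, with Dtl at -0.32 and Cul1 and Fbxw7 both at 0.30 in PRC1CKO (adjusted p = 0.308, 0.376 and 0.413, limma), limma gave 0 at an unadjusted p below 0.05 in both lines, and edgeR and DESeq2 called 0.

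Of 13 pocket proteins and E2F and DP factors, limma called 1 higher and 1 lower in PRC1CKO, where 16.5% and 3.09% of all transcripts were, and 1 higher and 0 lower in PRC1CPM, where 13.1% and 1.4% were. E2f6, a repressor found in a variant PRC1, rose by 0.93 in log2 in PRC1CKO (SE 0.24, adjusted p = 0.00254, limma) and by 0.83 in PRC1CPM (adjusted p = 0.00982, limma). E2f1, an activator of S-phase genes, had 1378, 788 and 1024 normalised reads in untreated PRC1CKO and 648, 617 and 607 after OHT. It fell by 0.73 in log2 (SE 0.25, adjusted p = 0.0293, limma), and had a log2 fold change of -0.34 in PRC1CPM that was not called. Its highest untreated PRC1CKO value was in replicate 1, and no value without that library is given here. E2f8 had 0.59 in PRC1CKO (adjusted p = 0.0990, limma). In PRC1CKO 2 were called lower with TMM scaling and 2 higher with the replicate block, beside 6.69% and 20.3% of all transcripts.

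**Figure D5:**
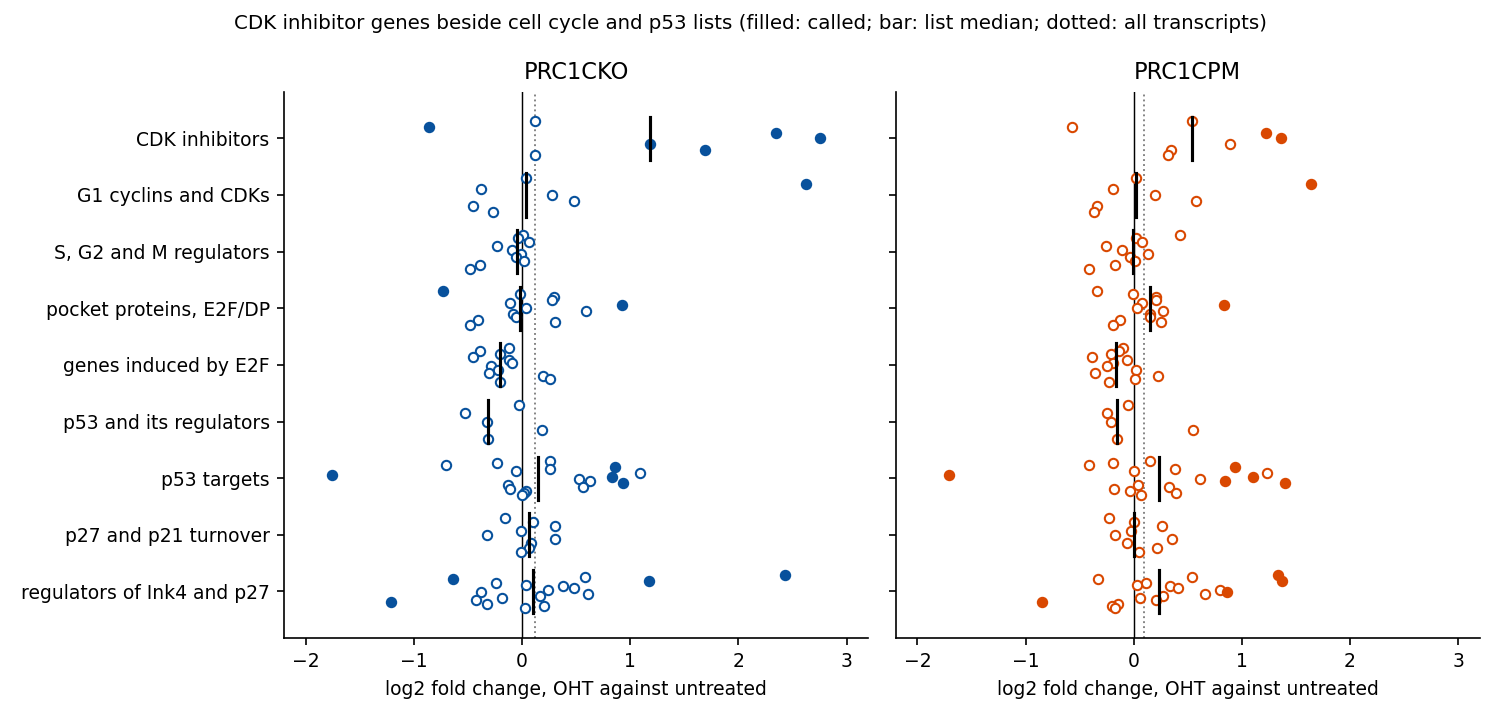
Log2 fold changes with OHT in PRC1CKO and PRC1CPM of the tested genes in the CDK inhibitor, cell cycle, p53 and regulator lists. Each point is a gene, the bar in each list is its median, called genes are filled, and the dotted line is the median of all transcripts. Ccnd2 stands highest among the G1 cyclins and CDKs, at 2.62 in PRC1CKO.

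ARF and p21 lie on either side of p53 in its pathway. Of 5 genes for p53 and its regulators none was called in either line. Trp53 itself had a log2 fold change of -0.31 in PRC1CKO (adjusted p = 0.352, limma), and the checkpoint kinase genes Chek1 and Chek2 had -0.53 and -0.33 (adjusted p = 0.0930 and 0.396, limma). Mdm2, which encodes the ubiquitin ligase of p53, had 0.19 in PRC1CKO (adjusted p = 0.658, limma) and 0.55 in PRC1CPM (adjusted p = 0.0744, limma). In PRC1CPM each OHT-treated library of Mdm2 lay above each untreated one, as for 18.7% of all transcripts. With TMM scaling 1 of the 5 was called lower in PRC1CKO, beside 6.69% of all transcripts. Without the genomic DNA correction 1 was called higher in PRC1CPM, beside 20.2%. At an unadjusted p below 0.05 limma gave 1 lower in PRC1CKO and 1 higher in PRC1CPM, and edgeR and DESeq2 called 0.

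Of 18 p53 targets other than Cdkn1a, limma called 3 higher and 1 lower in PRC1CKO and 4 higher and 1 lower in PRC1CPM, where 16.5% and 3.09%, and 13.1% and 1.4%, of all transcripts were. Without the genomic DNA correction 8 were called higher in PRC1CPM, where 20.2% of all transcripts then were. In PRC1CKO edgeR and DESeq2 each called 2 higher, beside 16.0% and 16.3% of all transcripts, and in PRC1CPM 5 and 4, beside 13.3% and 13.6%. With the replicate block 5 were called higher and 2 lower in PRC1CKO, beside 20.3% and 4.86% of all transcripts. In PRC1CPM 6 were called higher with it, beside 17.9%. Pmaip1, a pro-apoptotic BH3 gene, rose by 0.93 in log2 (adjusted p = 0.00325, limma) and 1.40 (adjusted p = 2.03e-05, limma), and Btg2, an antiproliferative gene, by 0.85 (adjusted p = 0.00513, limma) and 0.94 (adjusted p = 0.00287, limma). Perp rose in both lines and Plk2 in PRC1CPM, these 2 being named after their values were seen. Gdf15, a stress-induced cytokine, fell by 1.76 in PRC1CKO (adjusted p = 7.42e-05, limma) and by 1.71 in PRC1CPM (adjusted p = 0.000187, limma). Genes of the list were thus called in both directions, and the 3 of 18 called higher in PRC1CKO were near the share of all transcripts. In PRC1CKO edgeR called 2 lower, beside 3.26% of all transcripts.

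Among 18 transcriptional regulators of the Ink4 locus and of p27, limma called 2 higher and 2 lower in PRC1CKO and 3 higher and 1 lower in PRC1CPM, where 16.5% and 3.09%, and 13.1% and 1.4%, of all transcripts were. Without the genomic DNA correction 7 were called higher in PRC1CPM, beside 20.2% of all transcripts. DESeq2 called 1 higher in PRC1CKO and 2 in PRC1CPM, beside 16.3% and 13.6% of all transcripts. With the replicate block limma called 3 and 5 higher, beside 20.3% and 17.9%. Bmi1, a PRC1 subunit known to repress Cdkn2a, rose by 2.43 in log2 in PRC1CKO (SE 0.28, adjusted p = 5.64e-10, limma) and by 1.33 in PRC1CPM (adjusted p = 0.000276, limma). Ets1, an activator of p16, rose by 1.17 (adjusted p = 0.00462, limma) and 1.37 (adjusted p = 0.00122, limma). Mycn fell by 1.21 in PRC1CKO (adjusted p = 2.91e-05, limma) and by 0.85 in PRC1CPM (adjusted p = 0.00472, limma). The other calls, named after their values were seen, were Cbx7, a PRC1 subunit, which fell by 0.64 in PRC1CKO (adjusted p = 0.0255, limma), and Id2, which rose by 0.86 in PRC1CPM (adjusted p = 0.0209, limma).

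Of 22 neighbours tested that start within 100 kb of an inhibitor gene, leaving out the family itself, limma called 2 higher and 3 lower in PRC1CKO and 1 higher and 2 lower in PRC1CPM, where 16.5% and 3.09%, and 13.1% and 1.4%, of all transcripts were. Near Cdkn1b, Gpr19 and 1190002F15Rik fell in both lines, by 0.84 (adjusted p = 0.00493, limma) and 1.04 (adjusted p = 0.0336, limma) in PRC1CKO and by 0.83 (adjusted p = 0.00780, limma) and 1.68 (adjusted p = 0.000439, limma) in PRC1CPM. Near Cdkn1c, Phlda2, an imprinted gene of the same cluster, rose by 0.77 in PRC1CKO (adjusted p = 0.0282, limma). The others were Ap1m2 near Cdkn2d, higher by 0.91 in both lines (adjusted p = 0.0238 and 0.0302, limma), and Trp53cor1 near Cdkn1a, which fell by 0.91 in PRC1CKO (adjusted p = 0.0232, limma).

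Of 3 tested neighbours of Cdkn1c, 2 were called higher in untreated PRC1CPM than in untreated PRC1CKO, where 2.21% of all transcripts were. Phlda2 was 1.25 higher in log2 in untreated PRC1CPM than in untreated PRC1CKO (adjusted p = 0.00229, limma), and Slc22a18, 12.7 kb from the start of Cdkn1c, was 1.63 higher (adjusted p = 0.000660, limma). Slc22a18 was also 1.24 higher after OHT (adjusted p = 0.0203, limma). The third, Nap1l4, had a difference of -0.0039 between the untreated lines (adjusted p = 1.00, limma).

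Over the 12 libraries, the log2 levels most like those of Cdkn2a were Tpbg, Mical2 and Clmp, with Pearson r of 0.989, 0.988 and 0.985 among 15507 transcripts compared. Those most like Cdkn1c were Doc2b, Tbc1d4 and Rnf217 (r = 0.983, 0.981 and 0.980), and those most like Cdkn2b were Clu, T and Hacd4 (r = 0.982, 0.977 and 0.977). Cdkn1b was most like Tfe3, Maz and Seh1l (r = 0.992, 0.991 and 0.985), Cdkn1a most like Serpinb9, Psmb8 and Angpt1 (r = 0.957, 0.957 and 0.953). For Cdkn2d they were Arhgef3, Bloc1s4 and Gtf3a (r = 0.943, 0.936 and 0.928) and for the low Cdkn2c they were Pnliprp2, Six3os1 and Kcng1 (r = 0.890, 0.884 and 0.880). Within the family, r was 0.905 between Cdkn1c and Cdkn2a, 0.849 between Cdkn2a and Cdkn2b and -0.411 between Cdkn1b and Cdkn2a. These values describe 12 libraries that share scale factors and treatments, and any genes that differ between the conditions in the same way will be alike.

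Markers of the labelled cell type were present in all conditions. All 10 pluripotency genes were tested, and their summed level, led by Esrrb, was 64333 ± 9116 normalised reads in untreated PRC1CKO and 51002 ± 3538 after OHT (SD, n = 3), and 51894 ± 5154 and 50073 ± 10730 in PRC1CPM. Limma called 3 lower in PRC1CKO (Klf2, Sox2 and Utf1) and 1 in PRC1CPM (Klf2), beside 3.09% and 1.4% of all transcripts. In PRC1CKO 4 were called lower with TMM scaling, without the genomic DNA correction or with edgeR, beside 6.69%, 3.93% and 3.26%. Without the genomic DNA correction 2 were called higher in PRC1CPM, beside 20.2%. The counts of markers of other lineages were read beside the 16.5% and 3.09% of all transcripts called higher and lower in PRC1CKO and the 13.1% and 1.4% in PRC1CPM, and they differed by lineage. Of 6 primitive endoderm markers 4 were called higher in PRC1CKO and 6 in PRC1CPM, and their sum, led by Pdgfra, went from 1151 ± 584 to 3582 ± 653 and from 738 ± 68 to 1925 ± 384.

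Of 5 mesoderm markers tested 3 were called higher in each line, their sum, led by Kdr, going from 206 ± 114 to 545 ± 81 in PRC1CKO and from 242 ± 85 to 553 ± 179 in PRC1CPM. Of 6 neural markers, led by Nes, 4 were called higher and 1 lower in PRC1CKO and 2 higher in PRC1CPM. Their sum went from 1445 ± 572 to 2219 ± 177 in PRC1CKO and from 1636 ± 146 to 2042 ± 592 in PRC1CPM. Of 5 trophoblast markers, led by Tfap2c, 3 were called higher and 1 lower in PRC1CKO and 3 higher in PRC1CPM. Their sum was lower after OHT in PRC1CKO, from 1737 ± 255 to 1599 ± 248, and higher in PRC1CPM, from 1250 ± 99 to 1923 ± 430. Of 5 fibroblast markers, led by Col1a1, 1 was called higher and 1 lower in PRC1CKO and none in PRC1CPM, with sums of 3473 ± 1958 and 3519 ± 405 in PRC1CKO and 7618 ± 5983 and 8489 ± 5493 in PRC1CPM. Elf5, Mesp1 and Dcn were too low to test. With TMM scaling, without the genomic DNA correction or with the replicate block, the counts called higher in PRC1CKO ran from 3 to 5 for primitive endoderm, 3 to 4 for mesoderm, 2 to 4 for trophoblast and 0 to 1 for fibroblast markers, and stayed at 4 for neural markers. Of all transcripts 16.8%, 12.6% and 20.3% were then called higher. In PRC1CPM the counts ran from 2 to 4 for trophoblast, 2 to 3 for neural and 0 to 1 for fibroblast markers. They stayed at 6 for primitive endoderm and 3 for mesoderm, beside 14.1%, 20.2% and 17.9%. DESeq2 called 5 primitive endoderm, 2 mesoderm and 2 trophoblast markers higher in PRC1CKO, beside 16.3%. In PRC1CPM it called 5, 1 and 1, beside 13.6%. Among the smallest adjusted p-values in each list, log2 fold changes in PRC1CKO were 2.96, 2.14 and 1.74 for Gata6, Gata4 and Pdgfra of primitive endoderm and 4.95, 2.19 and 1.88 for Hand2, Kdr and T of mesoderm. They were 3.06 and 1.28 for the neural genes Pax6 and Nes, 2.68, 1.57 and -0.66 for Hand1, Eomes and Tfap2c of trophoblast, and -2.13, 0.65 and -0.88 for the fibroblast genes Postn, Thy1 and Col3a1, of which Col3a1 was not called. The part of other cell types in the changes of the inhibitor genes was not tested.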

How the data were processed

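The 12 cRNA-seq libraries (2 lines, untreated and OHT-treated, 3 each) were analysed. The authors removed reads on ribosomal DNA, aligned the rest to the joined mm10 and dm6 genomes, dropped PCR duplicates, counted reads over the gene bodies of a reduced set of RefSeq transcripts and divided them by spike-in size factors corrected by genomic DNA libraries. The submitters' processing notes name Bowtie2, STAR, SAMtools, bedtools, deepTools and DESeq2. The authors deposited the outcome as a signal per transcript, the normalised read count. Whole reads were recovered from it for 100% of values, to within 0.02 of a read. The libraries hold 14668159 to 27016156 reads on transcripts, and depth limits the genes with few reads.

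A transcript entered the test where 3 or more libraries held 10 or more of its reads, and the fit used limma 3.58.1 in R 4.3.3 on log2(normalised read count + 1), by condition and with a trend of variance, and the difference of the OHT effects between the lines was called on adjusted p alone. Alternatives were edgeR 4.0.16 and DESeq2 1.42.0 on the recovered reads, TMM scaling, scaling without the genomic DNA correction, the replicate number as a block, no filter, no trend, a pseudocount of 0.1, each line alone, and leaving out each library. Deviations from the condition means correlated by 0.205 in the mean over 18 pairs of libraries with the same replicate number (over 0.1 in 17, the lowest 0.0988, within PRC1CKO) and by -0.102 over 36 other pairs. Deviations within a condition sum to 0, so the negative value largely follows from the positive one and is no separate contrast. All 12 libraries correlated best with one of their own number. The labels tie nothing to the number, so blocked values stand beside a result where they change the call of an inhibitor gene. They also stand beside some other results, among them Cdkn1a and Cdkn1b in PRC1CPM, whose calls they left as they were. On simulated data, 84 of 100 genes changed by 1 and 99 of 100 changed by 2 on the log2 scale were recovered for OHT in PRC1CKO among 16940 genes, with 5 unchanged genes called. In that simulation the lowest genes were never changed, libraries were independent, scale factors were known and there was no replicate effect. Recovery under the conditions of the real libraries was not tested.

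The members and gene lists (G1 cyclins and CDKs, S, G2 and M regulators, pocket proteins and E2F, genes induced by E2F, p53 regulators and targets, turnover of p27 and p21, transcriptional regulators, and 6 lists of cell type markers) were chosen with earlier results of these data known. From each list the 3 genes with the smallest adjusted p in PRC1CKO were to be named, and the called ones where there were 4 or fewer, with the 3 transcripts most like each inhibitor gene (mean of at least 20) and its neighbours. One gene of the neural list is not reported here by name. The deposited fold changes, p-values and list of partly derepressed genes were not used, and the 12 genomic DNA libraries entered only through their totals. The table's transcript identifiers for the spans of Cdkn2a are swapped against RefSeq, so spans are named by position.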

Additional observations from a re-analysis of the deposited data

How the results depend on the processing

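Of 724 values of single genes under the alternatives, 675 kept their direction and their side of the threshold, 18 were no longer called, 14 became called and 17 turned sign. The rises of Cdkn1c and Cdkn2a with OHT were called in both lines under every alternative run. In PRC1CKO the count called higher was 4, and 3 with DESeq2, with no filter or with no trend, which lost Cdkn2b, beside 16.3%, 13.4% and 14.9% of all transcripts. It was 2 to 4 on leaving out a library, beside 11.9% to 22.0%. The count lower was 1, 0 without a trend, beside 2.46%, and 0 to 1 on leaving out a library, beside 1.92% to 3.98%. In PRC1CPM the count higher was 2, and 4 without the genomic DNA correction (Cdkn1a and Cdkn2b added), beside 20.2% of all transcripts. It was 2 to 4 on leaving out a library, beside 8.53% to 15.0%. The count lower was 0, 1 with TMM, beside 3.51%, and 0 to 1 on leaving out a library, beside 0.718% to 2.01%. Between untreated lines 1 was higher, beside 2.21% of all transcripts, and 2 with TMM, beside 4.4%. On leaving out a library 1 to 2 were higher. There were 2 without replicate 1 of untreated PRC1CKO, beside 8.81%, and without replicate 2 of untreated PRC1CPM, beside 3.64%. Between OHT-treated lines 1 was higher, beside 1.25% of all transcripts. The count was 0 with no filter, with no trend or with a pseudocount of 0.1, beside 0.687%, 0.874% and 0.974%. It was 0 to 1 on leaving out a library, beside 0.488% to 2.36%. The cause of these shifts was not tested.

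With the replicate number as a block, 2 genes were called higher between untreated lines (Cdkn2a added, adjusted p = 1.76e-05, limma, beside 9.63% of all transcripts), 2 between OHT-treated lines (Cdkn1c added, adjusted p = 0.000848, limma, beside 6.68%), and 2 effects were called smaller in PRC1CPM, those of Cdkn1c (-1.12, adjusted p = 0.000179, limma) and Cdkn2a (-1.39, adjusted p = 0.000337, limma), where 1.45% of all transcripts were. Cdkn2b was called in PRC1CPM (adjusted p = 0.00154, limma). It changed no other call of an inhibitor gene.

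Signs turned for values near 0. Without the genomic DNA correction these were Cdkn1a (-0.035) and Cdkn2d (-0.035) in PRC1CKO, Cdkn1b (-0.22) and Cdkn2d (-0.17) between untreated lines, and Cdkn2b in the difference of effects (0.15). With TMM they were Cdkn2d in PRC1CKO (-0.00075) and Cdkn1b between untreated lines (-0.048). On leaving out a library, values ran from -0.23 to 0.43 for Cdkn2d in PRC1CKO, from -0.17 to 0.36 for Cdkn1b and from -0.23 to 0.42 for Cdkn2d between untreated lines, from -0.10 to 0.39 for Cdkn2b between OHT-treated lines, and, for the difference of effects, from -0.0070 to 0.53 for Cdkn1b, from -0.83 to 0.13 for Cdkn2b and from -0.11 to 0.54 for Cdkn2d.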
